A study of Mus musculus with 491 samples.

Results

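The genes described here encode the collagens, laminins and integrins of cells sorted from the mouse otic vesicle and the tissue around it. They were chosen by name, as symbols that begin with Col, Lama, Lamb, Lamc, Itga or Itgb and a digit, or that are Itgav, and by a measured threshold: 1 FPKM or more in no less than 1% of the 491 cells. Of 79 symbols with such a name, 54 genes of the 19498 in the series passed: 30 collagens, 8 laminin chains, 13 integrin chains and 3 genes that match by name and are not integrins. These 3 are Itgb1bp1, whose protein binds the cytoplasmic tail of integrin beta 1, Itgb3bp, which encodes a centromere protein, and Itgb1bp2, which encodes a muscle chaperone. The threshold amounts to 5 cells, and Col8a2 and Itgb6 were just inside it with 5 cells each. Just outside, with 4 cells each, were Col17a1, Itga11, Itgb2 and Lamb3. Of the 25 genes below the threshold, 7 were found in no cell: Col6a4, Col6a5, Itga2, Itga2b, Itgb2l, Itgb3 and Lamc3. A gene present in few kinds of cell had to be high in them to pass, so counts of members that differ between cell classes describe the chosen genes.

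Extracellular matrix lies under and between the cells of every embryonic tissue. Collagens are triple helices, of which some form fibrils, collagen IV forms the network of the basement membrane, and collagen IX coats fibrils of collagen II. Laminins join an alpha, a beta and a gamma chain into the first scaffold of a basement membrane, and integrins are receptors of an alpha and a beta chain that tie matrix to the cytoskeleton. In the developing ear the otic epithelium rests on a basement membrane against mesenchyme, neuroblasts leave that epithelium and build the inner ear ganglion, and collagens II, IX and XI are best known from cartilage and from the acellular matrix over the sensory cells.

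All cells came from embryos of stage E10.5 that carried Pax2-Cre/+ and Ai14-tdTomato/+, in which cells that have made Cre from the Pax2 transgene, and the descendants of such cells, are red fluorescent. Every cell compared here shares that genotype and passed the sort for tdTomato, and periotic cells with no history of Cre were not sampled. The labels give 2 replicates, with 237 cells on plates 1 to 3 and 254 cells on plates 4 to 6. Neither what a replicate stands for nor how many embryos were pooled is stated in the labels. The p-values rest on how class means differ between these replicates once the overall replicate difference is removed. That spread is estimated over the 7 fitted classes and may be technical.

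The labels name no cell types, so classes were made by clustering the cells on 65 marker genes, none of them a member. They were 23 mesenchyme-like cells (15 in replicate 1 and 8 in replicate 2), 39 surface ectoderm-like cells (18 and 21), 120 neural tube progenitor-like cells (61 and 59), 59 differentiating neuron-like cells (25 and 34), 46 early neuroblast-like cells (16 and 30) and 139 otic epithelium-like cells (68 and 71). Cluster 3, with 58 cells, kept its number, and cluster 10, with 7 cells, was not compared. Mesenchyme-like cells had Twist1 and Prrx1 in 87.0% each and Pdgfra in 82.6%, while Foxc2 and Tcf21, on the same list, were in none. Surface ectoderm-like cells had Trp63 in 94.9% and Wnt6 in 92.3%, and the keratin Krt14 in 12.8%. Early neuroblast-like cells had Neurod1 in 84.8% and Eya2 in 82.6%, but 6 of 8 differentiating neuron markers were also found in at least 25% of them, and 22 of the 46 cells had their own marker list highest. Otic epithelium-like cells had Lmx1a in 69.1% and Oc90 in 59.0%, while Pax2 was in 15.1% and Dlx6 in 9.4%. Of the 10 otic markers 6 were found in at least 25% of these cells, and 64 of the 139 cells had their own list highest. Epcam, on the otic list, was in every otic epithelium-like and every surface ectoderm-like cell. Summed over 10 otic markers, the median FPKM was 0.0 in the mesenchyme-like cells of both replicates, against 448.4 and 444.2 in otic epithelium-like cells.

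Read depth per cell is unknown. Genes found per cell had a median of 4513, and the class medians ran from 4293 in neural tube progenitor-like cells to 5187 in mesenchyme-like cells, with 4760 in otic epithelium-like cells. Between fixed pairs of well positions on a plate, genes abundant in 1 well and rare elsewhere also appeared in the other, and 337 cells lay in receiving wells. In the 272 of them where it could be measured, the median amount was 4.0% of the source well's value. The other 154 cells had no source well. Of 50 calls described below, 47 were also made after a correction for this transfer. In the 154 cells alone 11 were, and the cause of these losses was not tested. There the mesenchyme-like cells of replicate 2 were down to 1 cell. The differences had a median ratio of 1.04 to those in all cells, and single ones moved either way. Between surface ectoderm-like and otic epithelium-like cells, Lama5 went from 1.77 to 1.1 and Itga6 from 1.58 to 2.43.

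A level is the mean of log2(FPKM + 1) over the cells of a class in a replicate, FPKM being fragments scaled to transcript length and to the fragments of the cell, so that genes can be set side by side, and a gene is found in a cell at an FPKM of at least 1. Of the 54 members, 33 were found in at least 25% of the cells of a class. Each of these has a highest class by construction, and the tallies describe means that were not tested against the next class. Surface ectoderm-like cells had the highest level for 12 of these (3 collagens, 4 laminin chains, 4 integrin chains and Itgb3bp). Mesenchyme-like cells had the highest level for 10 (7 collagens and 3 integrin chains) and otic epithelium-like cells for 7 (6 collagens and Lamb2). Neural tube progenitor-like cells were highest for Itgb8 and Lama1, differentiating neuron-like cells for Itga4, cluster 3 for Itgb1bp1, and early neuroblast-like cells for no member. The highest and next means were close for Itgb5 (4.43 in surface ectoderm-like and 4.41 in mesenchyme-like cells), Col4a1 (2.96 in otic epithelium-like and 2.93 in surface ectoderm-like cells), Col4a5 (1.02 and 0.99), Lamb2 (1.01 and 0.92) and Itgb1 (6.18 and 6.08). The number of collagen genes found per cell had a median of 9 in mesenchyme-like, 6 in surface ectoderm-like, 3 in neural tube progenitor-like, 2 in differentiating neuron-like, 5 in early neuroblast-like and 7 in otic epithelium-like cells. After the correction for transfer the medians were 8, 6, 2, 1, 4 and 7 in the same classes, and the median of early neuroblast-like cells without a source well was 2.5. Integrin beta 1, the common partner of most alpha chains, was nearly everywhere: Itgb1 was found in 94.9% of the 491 cells, in no class in fewer than 91.3%, at class means of 5.09 to 6.18.

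**Figure D1:**
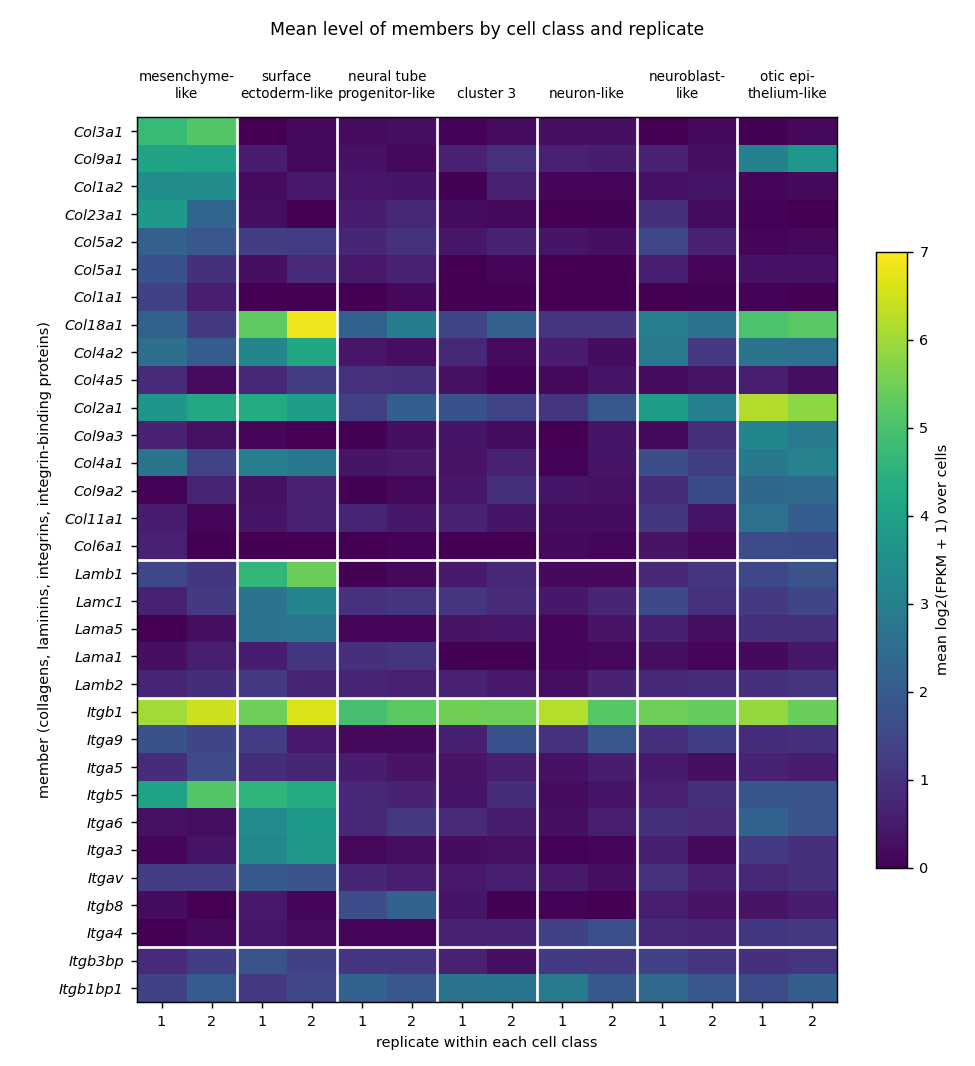
Mean log2(FPKM + 1) of members found in at least 25% of the cells of a class (1 of the 33 is not shown), with 1 row per member and 2 columns (replicates 1 and 2) per class. Itgb1 is bright in all 7 classes, the rows from Col3a1 to Col1a1 have their highest mean in mesenchyme-like cells, and those from Col2a1 to Col6a1 in otic epithelium-like cells.

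The collagen set of the otic epithelium was shown most clearly by Col2a1, Col9a2, Col9a3 and Col11a1. Col9a1 was frequent there too, but its mean was higher in mesenchyme-like cells (4.08, against 3.41), a difference that was not called. Col2a1, on chromosome 15 (GRCm38, 97975602 to 98004695, minus strand), encodes the fibril-forming chain of collagen II. Of otic epithelium-like cells 97.1% had it, with a median of 75.3 and a highest value of 695.9 FPKM. The 3 chains of collagen IX were found in 67.6% (Col9a1), 72.7% (Col9a2) and 60.4% (Col9a3) of these cells, and Col11a1, whose chain joins collagen II fibrils, in 59.7%. In the other compared classes Col9a3 was found in 2.6% to 19.6% of cells and Col2a1 in 46.6% to 87.0%. Col9a1 was in 78.3% of mesenchyme-like cells and in 8.3% to 22.0% of cells in the remaining compared classes. After the correction for transfer these ranges were 0.0% to 15.2% for Col9a3, 27.6% to 84.6% for Col2a1 and 2.5% to 13.8% for Col9a1. Within the otic epithelium-like class the markers had separated 3 clusters, and Col11a1 was found in 40.7%, 83.6% and 52.0% of the 59, 55 and 25 cells in them. Itga4 was likewise most frequent in the cluster of 55 cells, with 11, 25 and 5 cells, while Col2a1 stayed at 94.5% or more.

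The bases before the starts of 2 of these genes and of the leading mesenchyme gene Col3a1 are shown because SOX proteins are known to act on collagen II, IX and XI genes in cartilage and because TATA and CCAAT boxes are common elements near gene starts. Each run holds 250 bases before the RefSeq start on GRCm38.p6, plus strand, with no annotated exon inside it, and capitals mark matches of the letters ACAANG (SOX-type), CCAAT or TATAAA on either strand. The windows are chr1:24177360-24177609 for Col9a1, chr3:114030290-114030539 for Col11a1 and chr1:45311288-45311537 for Col3a1.
Col9a1: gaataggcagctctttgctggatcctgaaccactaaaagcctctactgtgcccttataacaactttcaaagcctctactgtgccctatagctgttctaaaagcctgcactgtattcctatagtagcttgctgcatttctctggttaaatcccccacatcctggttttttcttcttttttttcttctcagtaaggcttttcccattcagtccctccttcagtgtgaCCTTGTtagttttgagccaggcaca
Col11a1: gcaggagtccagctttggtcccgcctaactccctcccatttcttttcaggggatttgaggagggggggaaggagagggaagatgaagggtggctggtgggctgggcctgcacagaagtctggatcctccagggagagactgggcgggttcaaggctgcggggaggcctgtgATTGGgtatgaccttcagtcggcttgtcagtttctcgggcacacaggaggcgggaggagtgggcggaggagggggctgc
Col3a1: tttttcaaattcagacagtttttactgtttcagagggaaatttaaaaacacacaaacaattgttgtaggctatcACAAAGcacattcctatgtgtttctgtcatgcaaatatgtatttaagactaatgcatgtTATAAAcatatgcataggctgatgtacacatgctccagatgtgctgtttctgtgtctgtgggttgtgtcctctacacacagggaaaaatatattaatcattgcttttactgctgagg
Col9a1 holds a SOX-type match read on the minus strand, CCTTGT, at -25 to -20 from the start. Col11a1 holds a CCAAT box read on the minus strand, ATTGG, at -79 to -75. Col3a1 holds the SOX-type letters ACAAAG at -176 to -171 and TATAAA at -117 to -112. Of 32851 promoter windows of this length, 36.3% hold ACAANG, 33.8% CCAAT and 4063 windows TATAAA, and of the 39 members with a window 13, 14 and 3 do. A match is a description of the letters and was not tied to the levels.

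**Figure D2:**
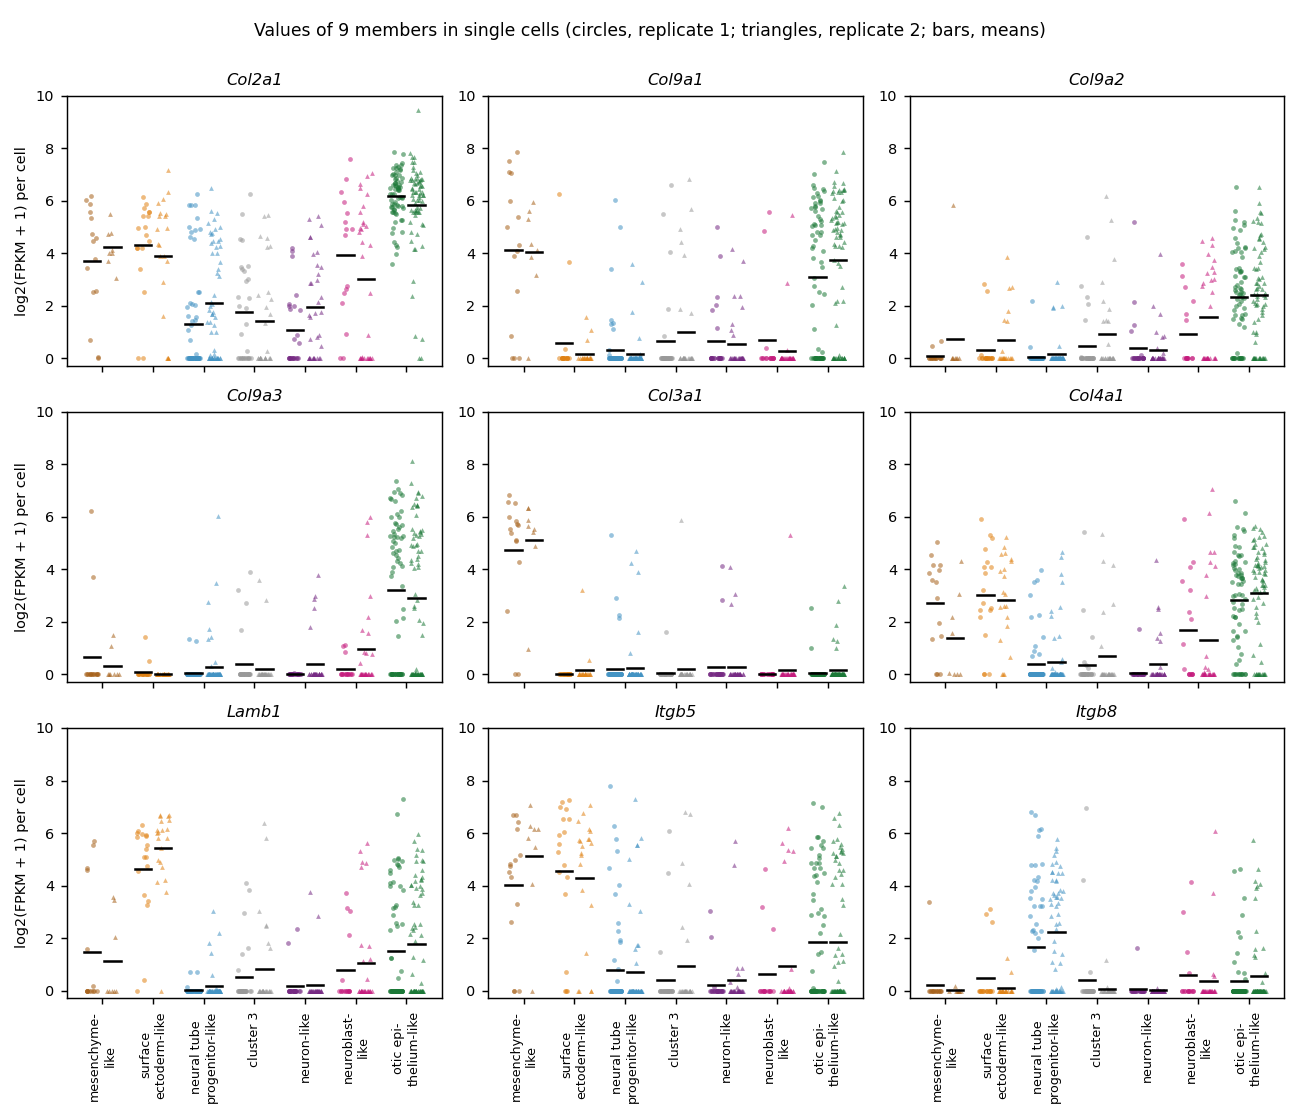
Values of 9 members in single cells, as log2(FPKM + 1), by class, with circles for replicate 1, triangles for replicate 2 and bars for the replicate means. Col2a1 is above 0 in nearly all otic epithelium-like cells, Col9a1 fills both mesenchyme-like and otic epithelium-like cells while Col9a2 and Col9a3 fill otic epithelium-like cells, and Lamb1 and Itgb8 peak in surface ectoderm-like and neural tube progenitor-like cells.

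Mesenchyme-like cells were higher than otic epithelium-like cells in the collagens of loose connective tissue fibrils (Col3a1, Col1a2, Col1a1, Col5a1 and Col5a2), in the membrane-bound collagen Col23a1 and in the integrin chain Itgb5, and lower in Col18a1, Col2a1, Col9a2, Col9a3, Col11a1, Col6a1, Itga6 and Itga4. With limma and a Benjamini-Hochberg adjusted p below 0.05 as the threshold for a call, 7 members were higher, where 2.06% of all 12591 genes tested were, and 8 were lower, where 3.38% of all genes were (5.44% in either direction). The median difference over the 54 members was -0.01, against 0.0 over all genes. Of the 8 laminin chains none was called in either direction by limma. At an unadjusted p below 0.05, 1 was higher and 1 lower, where 8.6% and 9.8% of all genes were.

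Col3a1, the chain of collagen III (chromosome 1, 45311538 to 45349706, plus strand), was the clearest. Its levels were 4.74 and 5.13 in mesenchyme-like cells of replicates 1 and 2, against 0.05 and 0.16 in otic epithelium-like cells, a difference of 4.82 (SE 0.23, adjusted p = 2.18e-07). The gene was present in 20 of 23 mesenchyme-like cells (87.0%, exact 95% interval 66.4 to 97.2) and in 4.3% of otic epithelium-like cells, and in 2.2% to 8.5% of the other compared classes. The replicates did not overlap, and the difference was 5.04 in cells without a source well (adjusted p = 0.00321). Its neighbour on the chromosome, Col5a2 (45374321 to 45503282, minus strand), encodes a chain of the thin regulatory collagen V. Its levels were 2.15 and 1.90 in mesenchyme-like cells, against 0.11 and 0.16 in otic epithelium-like cells (difference 1.89, SE 0.30, adjusted p = 0.00189).

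Col1a2, a chain of collagen I, had levels of 3.45 and 3.42 in mesenchyme-like cells, against 0.13 and 0.19 in otic epithelium-like cells (difference 3.27, SE 0.23, adjusted p = 5.68e-06). Its partner in the collagen I helix, Col1a1, was much lower, at 1.35 and 0.59, against 0.08 and 0.00 in otic epithelium-like cells. Of 18 mesenchyme-like cells with Col1a2, 8 had Col1a1, whose median was 3.5 FPKM where found, against 25.6 for Col1a2. Leaving out a replicate moved the Col1a1 difference of 0.93 to 0.59 (without replicate 1) and 1.27 (without replicate 2), and in cells without a source well it was 0.18 (adjusted p = 0.539). The like values for Col5a1, the second collagen V chain, were 1.02, 0.62 and 1.42, from levels of 1.75 and 0.97 in mesenchyme-like cells, against 0.33 and 0.35 in otic epithelium-like cells (SE 0.26, adjusted p = 0.0391).

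Col23a1 had levels of 3.77 and 2.28 in mesenchyme-like cells, against 0.08 and 0.02 in otic epithelium-like cells (difference 2.97, SE 0.35, adjusted p = 0.000214). Its share of cells was 78.3% in the mesenchyme-like class, 16.7% in the neural tube progenitor-like class and 2.2% in the otic epithelium-like class. Itgb5 (chromosome 16, 33829665 to 33949338, plus strand), a beta chain that pairs with integrin alpha V and binds vitronectin, had levels of 4.03 and 5.12 in mesenchyme-like cells, against 1.86 and 1.85 in otic epithelium-like cells. The difference was 2.72 (SE 0.40, adjusted p = 0.00105), and the gene was found in 82.6% and 42.4% of these cells.

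Collagen IX was split in the mesenchyme-like class. Col9a1 was found in 78.3% of its cells at 4.1 and 4.05, against 3.08 and 3.73 in otic epithelium-like cells, and the difference of 0.67 was not called (SE 0.37, adjusted p = 0.361). Col9a3, however, had levels of 0.66 and 0.32 in mesenchyme-like cells, against 3.22 and 2.89 in otic epithelium-like cells (difference -2.56, SE 0.28, adjusted p = 0.000136), and Col9a2 had 0.08 and 0.73, against 2.34 and 2.41 (difference -1.97, SE 0.26, adjusted p = 0.000557). Of the 18 mesenchyme-like cells with Col9a1, 1 had Col9a2 and 4 had Col9a3. Col9a1 remained in 78.3% of mesenchyme-like cells after the correction for transfer and was in 57.1% of the 7 cells without a source well.

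Among the other members lower in the mesenchyme-like class, Col18a1, a collagen of basement membranes whose end fragment is endostatin, differed most. Its levels were 2.17 and 1.2 in mesenchyme-like cells, against 5.01 and 5.2 in otic epithelium-like cells (difference -3.42, SE 0.52, adjusted p = 0.00137). Col2a1 stayed high in mesenchyme-like cells, at 3.71 and 4.23 and in 87.0% of cells, but below the 6.18 and 5.82 of otic epithelium-like cells (difference -2.03, SE 0.47, adjusted p = 0.0218). Col11a1 had levels of 0.53 and 0.13, against 2.6 and 2.1 in otic epithelium-like cells (difference -2.02, SE 0.26, adjusted p = 0.000435). The laminin receptor chain Itga6 had levels of 0.31 and 0.26 in mesenchyme-like cells, against 2.19 and 1.83 in otic epithelium-like cells (difference -1.72, SE 0.34, adjusted p = 0.00835). The collagen IV chains did not pass, with differences of -0.90 for Col4a1 (adjusted p = 0.284) and -0.36 for Col4a2 (adjusted p = 0.781).

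Other matrix genes were taken from 5 lists that hold no member. Of 18 interstitial matrix genes, 5 were higher in mesenchyme-like cells and 1 was lower, with a median difference of 0.49 over the list, against 0.0 over all genes. The elastic fibre gene Emilin1 led with levels of 3.3 and 2.71 in mesenchyme-like cells, against 0.02 and 0.10 in otic epithelium-like cells. Mfap4 (difference 2.36) and the small proteoglycan Bgn (2.31) followed, and Thbs1 fell by 1.37 on the log2 scale. Of 18 genes for making collagen 2 were higher and 1 lower (list median -0.07). Pcolce, whose protein speeds removal of the collagen propeptide, had levels of 5.73 and 4.48 in mesenchyme-like cells, against 0.51 and 0.57 in otic epithelium-like cells. Lox, a collagen cross-linking enzyme, differed by 0.90, and the lysyl hydroxylase Plod2 by -2.89. Of 14 basement membrane partners 2 were higher (Nid1 by 1.55, Nid2 by 0.96) and 3 lower (Sparc by -3.41, Fras1 by -1.41, Frem2 by -1.16), with a list median of -0.09. Of 14 further receptors the collagen receptor Ddr2 (1.87) and Gpc3 (1.66) were higher and the laminin receptor Bcam was lower (-2.71), with a median of -0.06. Of 20 integrin adaptors Tns1 was higher (0.57), and Cd9 (-4.40) and Fermt1 (-1.29) were lower, with a median of 0.24.

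**Figure D3:**
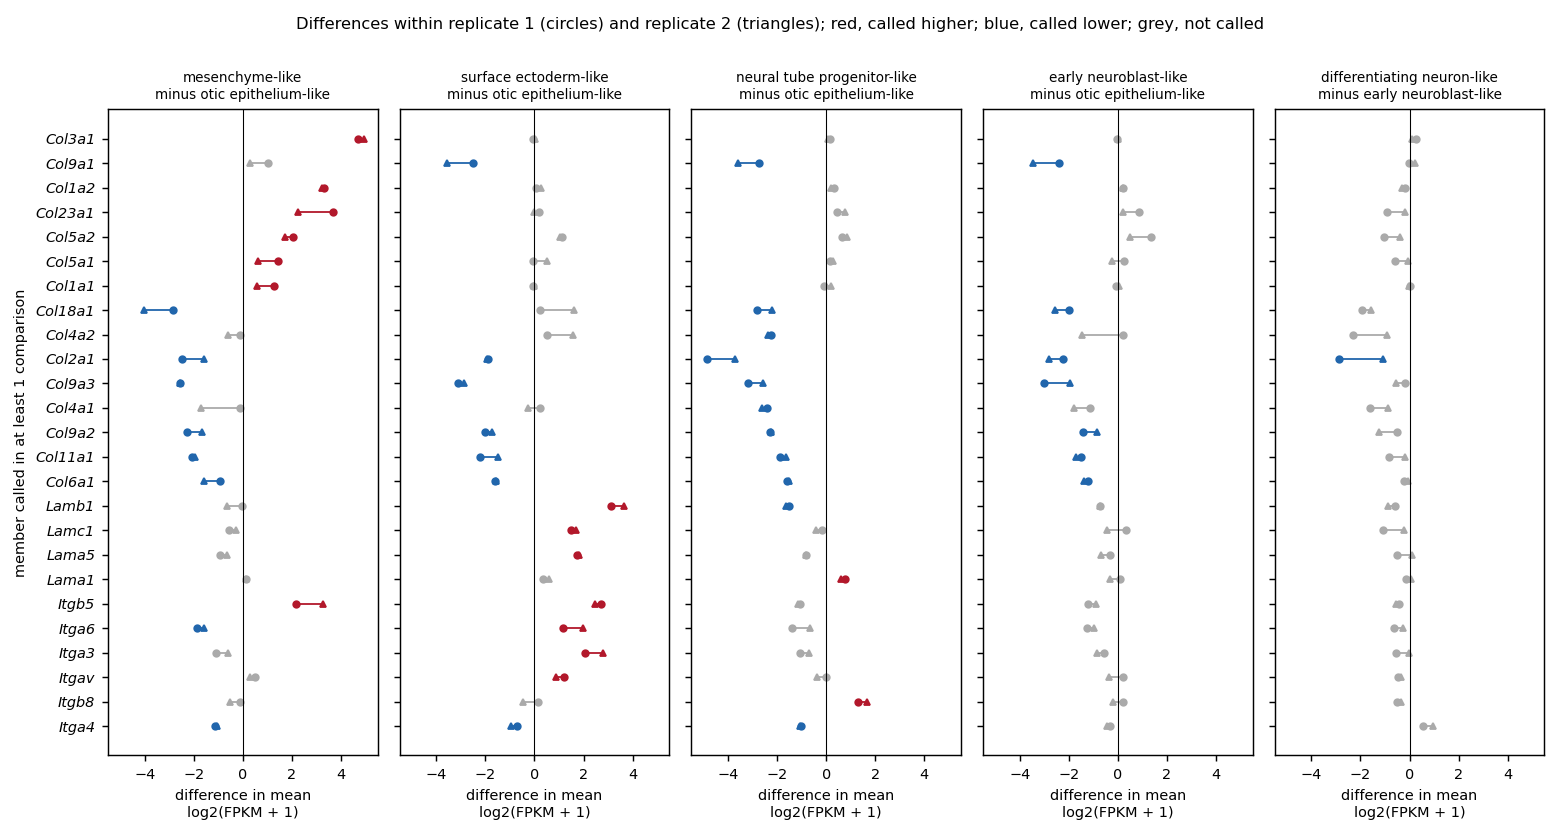
Differences in mean log2(FPKM + 1) for the 25 members called in at least 1 of the 5 comparisons, with a circle for replicate 1, a triangle for replicate 2 and a line between them, in red where called higher, blue where called lower and grey where not called. Red points lie mostly among fibrillar collagens for mesenchyme-like cells, from 0.59 to 4.96, and among laminin and integrin chains for surface ectoderm-like cells.

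Surface ectoderm-like cells, another epithelium in the sort, differed from otic epithelium-like cells in laminin and integrin chains. Lama5, Lamb1 and Lamc1, which together make a laminin trimer common in epithelial basement membranes, were all higher, as were the laminin-binding integrin alpha chains Itga3 and Itga6 and the chains Itgb5 and Itgav. The cartilage-type collagens Col2a1, Col9a1, Col9a2, Col9a3 and Col11a1 were lower, with Col6a1 and Itga4. Among members, 7 were called higher by limma, where 2.15% of all genes were, and 7 lower, where 2.16% of all genes were (4.31% in either direction). At an unadjusted p below 0.05, 5 of the 8 laminin chains were higher and none was lower. At that threshold 678 of all 12591 genes tested were higher and 1264 were lower. The median difference was 0.63 over the 8 laminin chains and 0.04 over the 54 members, against -0.08 over all genes. On the log2 of mean FPKM in place of the mean of log2 values, 3 members were called, all lower, and in cells without a source well 2 were, both lower. The shares of all genes called in those fits are not given here.

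Lamb1 (chromosome 12, 31265234 to 31329644, plus strand) had levels of 4.62 and 5.42 in surface ectoderm-like cells, against 1.52 and 1.79 in otic epithelium-like cells (difference 3.36, SE 0.35, adjusted p = 8.36e-05). Surface ectoderm-like cells had it in 92.3% and otic epithelium-like cells in 43.2%, against 3.3% of neural tube progenitor-like cells (0.8% after the correction for transfer). Lama5 (chromosome 2, 180176373 to 180225859, minus strand) had levels of 2.66 and 2.76 in surface ectoderm-like cells, against 0.94 and 0.94 in otic epithelium-like cells (difference 1.77, SE 0.23, adjusted p = 0.000435), with the same sign on 5 of 6 plates. Lamc1 had levels of 2.69 and 3.14, against 1.2 and 1.45 in otic epithelium-like cells (difference 1.59, SE 0.35, adjusted p = 0.0215). In all 3 genes both replicates of surface ectoderm-like cells lay above both of otic epithelium-like cells.

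The laminin chains were also counted together in the same cells. Such shares depend on how often each chain is found, and a link between chains was not tested. Lama5, Lamb1 and Lamc1 were all found in 20 of 39 surface ectoderm-like cells (51.3%, exact 95% interval 34.8 to 67.6), against 6 of 139 otic epithelium-like cells (4.3%, 1.6 to 9.2). At least 1 alpha, 1 beta and 1 gamma chain was found in 61.5% of surface ectoderm-like cells (44.6 to 76.6) and 16 of 139 otic epithelium-like cells (6.7 to 18.0%). The correction for transfer left the first share at 51.3% and moved the second to 59.0%, against 3.6% and 10.8% in otic epithelium-like cells. These intervals cover counting error within the class and not the spread between replicates.

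Of the integrin chains, Itga3 had levels of 3.25 and 3.78 in surface ectoderm-like cells, against 1.2 and 0.98 in otic epithelium-like cells (difference 2.43, SE 0.27, adjusted p = 0.000155). Itga6 had levels of 3.37 and 3.81, against 2.19 and 1.83 in otic epithelium-like cells (difference 1.58, SE 0.34, adjusted p = 0.0169). These chains were found in 76.9% and 84.6% of surface ectoderm-like cells. Their common partner Itgb1 was found in 158 of the 163 cells of any class with Itga6 (96.9%), against 93.9% of cells without Itga6. Itgb4, the beta chain that joins Itga6 in hemidesmosomes, was found in 10 of the 163 (6.1%), against 2.4% of cells without Itga6. A link between these chains was not tested. Itgb5 had levels of 4.57 and 4.31 in surface ectoderm-like cells, against 1.86 and 1.85 in otic epithelium-like cells (difference 2.58, SE 0.40, adjusted p = 0.00174). Its partner Itgav had 1.97 and 1.84, against 0.77 and 0.96, a difference of 1.04 that passed (adjusted p = 0.0412) but not after the correction for transfer (0.97, adjusted p = 0.0554).

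The collagens lower in surface ectoderm-like cells were led by collagen IX. Col9a1 had levels of 0.57 and 0.16, against 3.08 and 3.73 in otic epithelium-like cells (difference -3.04, SE 0.37, adjusted p = 0.000262). Col9a3 had 0.11 and 0.00, against 3.22 and 2.89 (difference -3.0, SE 0.28, adjusted p = 3.76e-05), and Col9a2 had 0.31 and 0.67, against 2.34 and 2.41 (difference -1.88, SE 0.26, adjusted p = 0.000821). Col11a1 had 0.40 and 0.63, against 2.6 and 2.1 in otic epithelium-like cells (difference -1.84, SE 0.26, adjusted p = 0.000863). Col6a1, a chain of the beaded microfibril collagen VI, was listed at 0 in all 39 surface ectoderm-like cells and found in 33.1% of otic epithelium-like cells (difference -1.58, SE 0.17, adjusted p = 8.36e-05). Col2a1 remained in 84.6% of surface ectoderm-like cells at 4.3 and 3.9, against 6.18 and 5.82 in otic epithelium-like cells (difference -1.90, SE 0.47, adjusted p = 0.0365), a call that was lost under 5 of 11 other settings. Col18a1 was found in 97.4% of surface ectoderm-like cells and did not pass, with levels of 5.25 and 6.82, against 5.01 and 5.2 in otic epithelium-like cells. The differences of -0.02 for Col4a1 and 1.04 for Col4a2 (adjusted p = 0.364) did not pass either.

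In the lists without members, 4 of 14 further matrix receptors were higher in surface ectoderm-like cells, led by the laminin receptor Bcam (2.65), Gpc4 (2.15) and Gpc3 (1.44), with a list median of 0.21, against -0.08 over all genes. Bcam, whose ligand is the laminin alpha 5 chain, had levels of 6.02 and 5.96 in surface ectoderm-like cells, against 3.04 and 3.64 in otic epithelium-like cells. Of 14 basement membrane partners 3 were higher, Npnt (2.32), Fras1 (1.07) and Egfl6 (0.64), and none lower by limma or at an unadjusted p below 0.05 (median 0.16). The integrin activator Fermt1 had levels of 4.6 and 4.24, against 1.37 and 1.27 in otic epithelium-like cells, and with Parva (1.74) made 2 of 20 adaptors higher, with Cd9 lower (-2.01, median 0.23). Of 18 interstitial matrix genes the hyaluronan link gene Hapln1 was higher (4.52) and Fbln1 (-1.90) and Fbn2 (-1.79) were lower (median -0.01). Of 18 genes for making collagen, Plod2 (-2.80) and Plod1 (-2.36) were lower and none was higher by limma, with 1 higher at an unadjusted p below 0.05 (median -0.13).

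**Figure D4:**
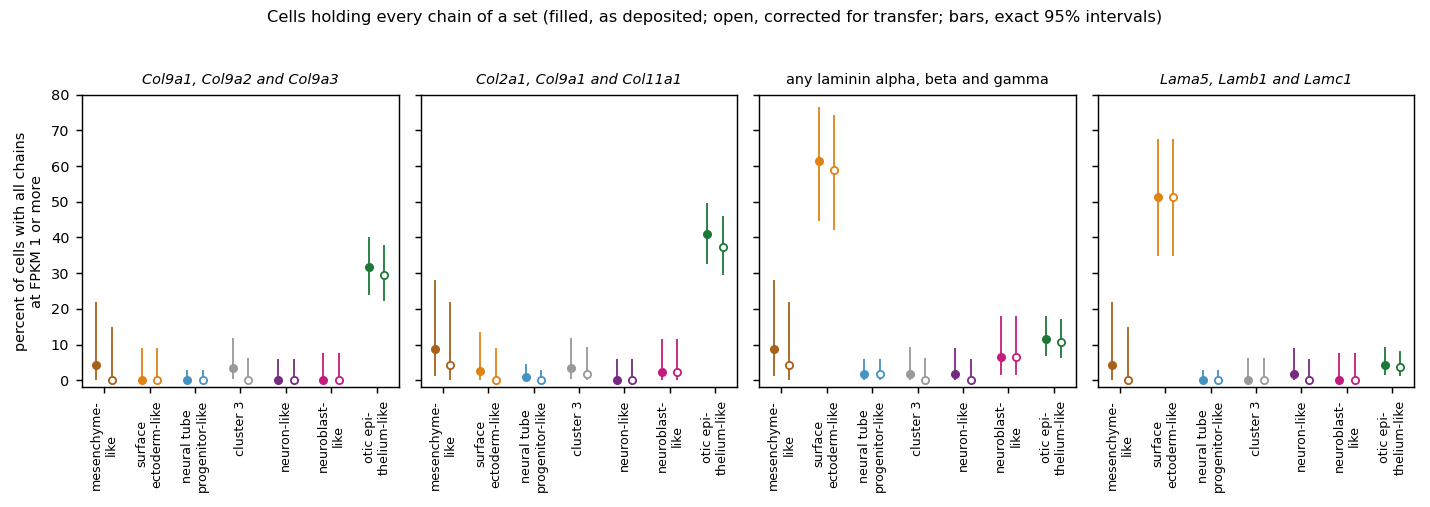
Share of the cells of each class in which every chain of a set was found, with filled points for values as deposited, open points for values corrected for transfer and bars for exact 95% intervals. The collagen sets reach 31.7% and 41.0% in otic epithelium-like cells, the laminin sets reach 61.5% and 51.3% in surface ectoderm-like cells, and the next highest share is that of otic epithelium-like cells for any laminin trimer, 16 of 139.

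Neural tube progenitor-like cells, an epithelium of another origin, were lower than otic epithelium-like cells in 11 members and higher in an integrin and a laminin chain. Collagens II, IV, IX, XI and XVIII were lower, as were Lamb1, Col6a1 and Itga4, while Itgb8 and Lama1 were higher. Members called higher numbered 2 by limma, where 1.4% of all genes were, and members called lower numbered 11, where 3.76% of all genes were (5.16% in either direction). The median difference was -0.10 over the members and -0.10 over all genes. With the class means weighted by their number of cells, 22 members were called, 4 of them higher. The share of all genes called in that fit is not given here, so this count describes the members only.

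Itgb8 (chromosome 12, 119158022 to 119238802, minus strand), the beta chain that with integrin alpha V binds latent TGF-beta, had levels of 1.66 and 2.21 in neural tube progenitor-like cells, against 0.36 and 0.55 in otic epithelium-like cells (difference 1.48, SE 0.22, adjusted p = 0.00157). Its transcripts were in 62 of 120 neural tube progenitor-like cells (51.7%, exact 95% interval 42.4 to 60.9) and 14.4% of otic epithelium-like cells, and in 1.7% to 10.9% of the other compared classes. In cells without a source well its difference was 0.89 (adjusted p = 0.155). Lama1, the alpha chain of an early embryonic laminin, had levels of 0.93 and 1.06, against 0.18 and 0.46 in otic epithelium-like cells (difference 0.67, SE 0.17, adjusted p = 0.0403). In the neural tube progenitor-like class 31.7% of cells had it, and the call was lost under 6 of 11 other settings.

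The lower members were led by Col2a1, at 1.32 and 2.1 in neural tube progenitor-like cells, against 6.18 and 5.82 in otic epithelium-like cells (difference -4.29, SE 0.47, adjusted p = 0.000134). Col9a1 had 0.33 and 0.16, against 3.08 and 3.73 (difference -3.16, SE 0.37, adjusted p = 0.000203), and Col9a3 had 0.04 and 0.30, against 3.22 and 2.89 (difference -2.88, SE 0.28, adjusted p = 6.21e-05). The basement membrane chains followed. Col4a1 had levels of 0.39 and 0.47 in neural tube progenitor-like cells, against 2.82 and 3.09 in otic epithelium-like cells (difference -2.52, SE 0.43, adjusted p = 0.00334), and was found in 14.2% and 77.7% of these cells. Col4a2 had 0.43 and 0.27, against 2.68 and 2.65 (difference -2.31, SE 0.51, adjusted p = 0.0172), and was found in 9.2% and 72.7%. Col18a1 had levels of 2.18 and 2.98 in neural tube progenitor-like cells, against 5.01 and 5.2 in otic epithelium-like cells (difference -2.52, SE 0.52, adjusted p = 0.0116). Lamb1 fell by 1.57 on the log2 scale, a call that was lost after the correction for transfer (adjusted p = 0.0509).

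Of 18 genes that fold and modify collagen 6 were lower in neural tube progenitor-like cells. Plod2 (-2.80), Plod1 (-2.15) and the collagen chaperone Serpinh1 (-1.79) came first. None was higher by limma, and 2 were higher at an unadjusted p below 0.05, where 3.5% of all genes were. The list median was -0.66, against -0.10 over all genes. Of 18 interstitial matrix genes 4 were lower, led by Fbln1 (-2.36), Mfap2 (-2.03) and Vcan (-1.94), and Vtn, which encodes the ligand vitronectin, was higher (1.12, list median -0.40). Lower too were 2 of 14 basement membrane partners (Fras1 by -1.41, Frem2 by -1.03, median -0.24), 3 of 20 adaptors (Cd9 by -4.07, Fermt1 by -1.22, Tln2 by -1.15, median -0.65) and 2 of 14 receptors (Bcam by -2.95, Gpc3 by -2.25, median -0.35). In these last 3 lists limma called no gene higher, and 1, 0 and 0 were higher at an unadjusted p below 0.05.

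The chains of collagen IV lie head to head on chromosome 8, Col4a1 at 11198423 to 11312826 on the minus strand and Col4a2 at 11312805 to 11449287 on the plus strand, so that their first 22 bases overlap on opposite strands. Over all classes both were found in 137 cells, Col4a1 alone in 70, Col4a2 alone in 66 and neither in 218. Col4a2 was thus found in 66.2% of cells with Col4a1 and 23.2% of cells without it, a contrast over classes that differ in both genes. Within classes the shares were 74.1% and 67.7% in otic epithelium-like, 90.6% and 71.4% in surface ectoderm-like, 56.2% and 36.7% in early neuroblast-like and 47.1% and 2.9% in neural tube progenitor-like cells. They ran the other way in mesenchyme-like cells (62.5% and 100%), cluster 3 (0.0% and 22.4%) and differentiating neuron-like cells (0.0% and 15.4%). Some of these shares rest on few cells. In mesenchyme-like cells Col4a2 was found alone in 7 and neither chain in 0, and in surface ectoderm-like cells in 5 and 2. Col4a1 was found alone in 9 cluster 3 and 7 differentiating neuron-like cells, and both chains in 0. Collagen IX and collagen VI gave other pictures. All 3 collagen IX chains were found in 44 of 139 otic epithelium-like cells (31.7%, exact 95% interval 24.0 to 40.1) and in 1 mesenchyme-like and 2 cluster 3 cells besides, while Col2a1, Col9a1 and Col11a1 met in 41.0% of otic epithelium-like cells (32.7 to 49.7). Col6a1 was found without Col6a2 in 54 cells, Col6a2 without Col6a1 in 12 and both in 1, although collagen VI is built from different chains.

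Early neuroblast-like cells were lower than otic epithelium-like cells in Col2a1, Col9a1, Col9a2, Col9a3, Col11a1, Col18a1 and Col6a1, and no laminin or integrin chain passed. Members called lower numbered 7, all collagens, where 2.45% of all genes were lower. Limma called none higher, where 0.635% of all genes were (3.08% in either direction). At an unadjusted p below 0.05, 3 of 54 members were higher, where 3.8% of all genes were. The median difference was -0.10 over the 30 collagens and -0.10 over the members, against -0.08 over all genes. In cells without a source well 3 members were called lower and 1 higher, and on the log2 of mean FPKM 2 were called. The shares of all genes called in those fits are not given here.

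Col9a1 had levels of 0.67 and 0.29 in early neuroblast-like cells, against 3.08 and 3.73 in otic epithelium-like cells (difference -2.92, SE 0.37, adjusted p = 0.000933). The gene was present in 4 of 46 early neuroblast-like cells (8.7%, exact 95% interval 2.4 to 20.8), against 67.6% of the otic class (59.2 to 75.3). Col9a3 had levels of 0.19 and 0.95, against 3.22 and 2.89 in otic epithelium-like cells (difference -2.48, SE 0.28, adjusted p = 0.000474). Col9a2 was present in 43.5% of early neuroblast-like cells against 72.7% of otic epithelium-like cells. Its levels were 0.92 and 1.57, against 2.34 and 2.41, and its difference of -1.13 (adjusted p = 0.0354, same sign on 5 of 6 plates) was lost as a call under 7 of 11 other settings.

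Col2a1 had levels of 3.93 and 3.03 in early neuroblast-like cells, against 6.18 and 5.82 in otic epithelium-like cells (difference -2.52, SE 0.47, adjusted p = 0.0104), and was found in 65.2% and 97.1% of these cells. Col11a1 had levels of 1.1 and 0.39, against 2.6 and 2.1 in otic epithelium-like cells (difference -1.61, SE 0.26, adjusted p = 0.00456). Col18a1 had 3.0 and 2.66, against 5.01 and 5.2 (difference -2.28, SE 0.52, adjusted p = 0.0326). Col6a1 had 0.38 and 0.17, against 1.59 and 1.57 in otic epithelium-like cells (difference -1.30, SE 0.17, adjusted p = 0.00105). All 4 genes were lower in both replicates and on 6 of 6 plates. The share of cells with Col4a1 was 34.8% in the early neuroblast-like and 77.7% in the otic epithelium-like class, and its difference of -1.46 did not pass (adjusted p = 0.101), and Itgb1 differed by -0.27 (adjusted p = 0.864). In the early neuroblast-like class of replicate 2, 3 cells had 6 or 7 of 7 endothelial markers, and 1 of them had the highest value of Col4a1 in the class, 130.8 FPKM. The fit without these cells and without the 4 cells with macrophage markers, 1 of which was otic epithelium-like, kept 6 of the 7 calls and lost Col9a2 (adjusted p = 0.0664).

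Matrix genes outside the family followed in small numbers. Fras1 (-1.23) and Frem2 (-1.02), which join the epithelium to its basement membrane, were the 2 of 14 partners called lower (median -0.35, against -0.08 over all genes). Plod2 (-2.42) was the 1 of 18 genes for making collagen (median -0.30), Cd9 (-2.46) and Tln2 (-1.46) were the 2 of 20 adaptors (median -0.27), and Gpc3 (-2.21) and Bcam (-2.09) were the 2 of 14 receptors (median -0.26). In these 4 lists limma called none higher, with 1, 0, 0 and 0 higher at an unadjusted p below 0.05. Of 18 interstitial genes Fbln1 was lower (-2.45) and Mfap4 higher (2.36), with a median of -0.34.

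Between differentiating neuron-like and early neuroblast-like cells 1 member was called. Col2a1 was lower, with levels of 1.06 and 1.94 in differentiating neuron-like cells, against 3.93 and 3.03 in early neuroblast-like cells (difference -1.98, SE 0.47, adjusted p = 0.0378). The background was 0.453% of all genes lower and 2.61% higher (3.06% in either direction), and limma called no member higher. At an unadjusted p below 0.05, 2 members were higher and 11 lower, where 9.4% and 5.2% of all genes were. The median difference over the 54 members was -0.10, against 0.0 over all genes. Without replicate 1 the Col2a1 difference was -1.08 and without replicate 2 it was -2.87, the sign held on 5 of 6 plates, and in cells without a source well it was -0.78 (adjusted p = 0.83).

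Several collagens pointed the same way without passing, among them Col18a1 (-1.75, adjusted p = 0.101), Col4a2 (-1.62, adjusted p = 0.128), Col4a1 (-1.25, adjusted p = 0.167) and Col9a2 (-0.89, adjusted p = 0.0988). Itga4, the alpha chain that binds fibronectin and VCAM1, had levels of 1.34 and 1.70 in differentiating neuron-like cells, against 0.80 and 0.72 in early neuroblast-like cells. Its difference of 0.76 missed the threshold (adjusted p = 0.075) and passed after the correction for transfer (0.88, adjusted p = 0.0288). It was found in 44.1% of differentiating neuron-like cells and 23.9% of early neuroblast-like cells, and 8.0% of its exon bases lie in exons of Cerkl on the opposite strand. No source used here gives whether reads were counted by strand. Of the genes outside the family, Sparc (-2.47) and Gpc3 (-2.6) were lower and Mfap4 was higher (2.3).

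The 4 comparisons with otic epithelium-like cells share those cells. Side by side, Col2a1, Col9a2, Col9a3, Col11a1 and Col6a1 were called lower in all 4, Col9a1, Col18a1 and Itga4 in 3, and Itgb5 was called higher in 2. A further 14 members were called higher in 1 comparison each. In all, 25 of the 54 members were called in at least 1 comparison and 29 in none. The like tallies across comparisons were not made for all 12591 genes tested, so these counts describe the members only. The 21 members outside the 33 described by class, found in 5 to 30 cells, reached at most 21.7% of the cells of any compared class. They were 14 collagens, among them Col6a2 and Col11a2, the laminin alpha chains Lama2 and Lama4, the integrin chains Itga7, Itga8, Itgb4 and Itgb6, and Itgb1bp2.

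**Figure D5:**
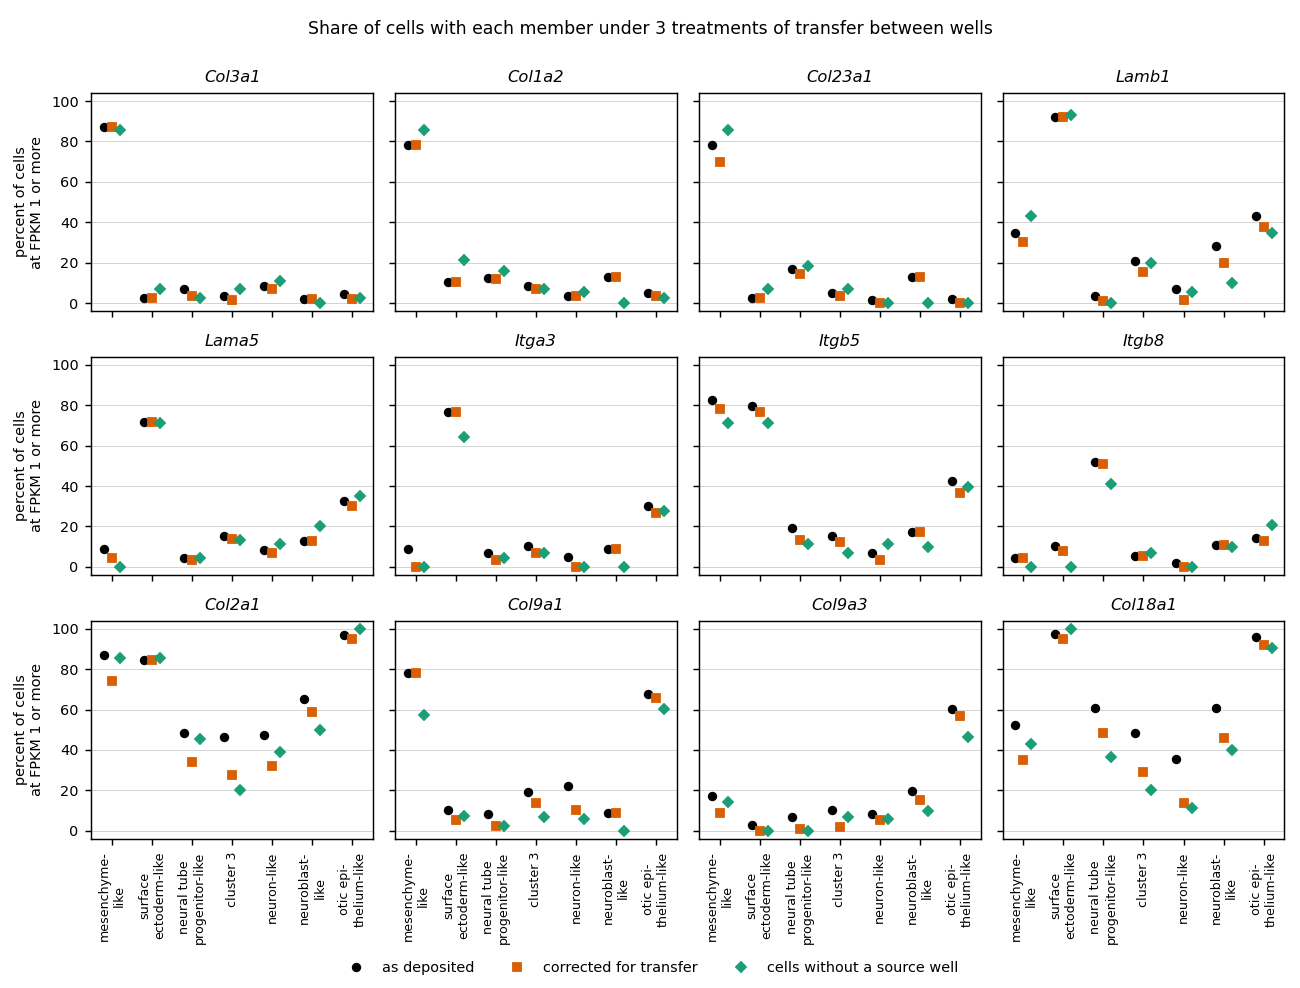
Share of the cells of each class in which 12 members were found, as deposited, after the correction for transfer and in the 154 cells without a source well. Col3a1 stays between 85.7% and 87.0% in mesenchyme-like cells and Lamb1 between 92.3% and 92.9% in surface ectoderm-like cells, while Col18a1 in differentiating neuron-like cells falls to 13.6% after correction and 2 of 18 cells without a source well, against 35.6% as deposited.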

How the data were processed

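Single tdTomato+ cells were sorted into 96-well plates and their cDNA was made with the Clontech SMARTer Ultra Low Input V3 kit and Nextera XT, per the labels' protocols. The deposited table holds log2(FPKM + 1) values made by the authors for 491 cells; the submitters' processing notes name FastQC, cutadapt, Bowtie, Bowtie2, TopHat, SAMtools, Cufflinks and mm10, with no versions. Of 19659 rows, 132 with repeated identifiers and 29 without a symbol of their own were left out. Of all values 74.9% were 0.

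Cells were clustered on 65 of 85 markers in 13 lists (scanpy 1.11.5, leidenalg 0.10.2, 15 components, 15 neighbours, resolution 1.0), which gave 11 clusters, and no doublet caller was run. Class means per replicate, 14 in all, were fitted with limma 3.58.1 in R 4.3.3 on class and replicate, without the 65 markers. The replicate term rests on the replicate numbers in the labels, and each replicate has its own plates. Transfer followed 19 links between well positions; values up to 3 times the expected transfer were set to 0 and the expected amount was subtracted from others.

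Members and lists were chosen with earlier results of these data known. Levels are given by class for members found in at least 25% of a class, full statistics for at most 6 called members per direction and comparison, and 3 called genes per list and direction. Exact Clopper-Pearson intervals cover counting error only. The procedure was tested on simulated data. Values of 1 member and 1 marker are not reported here.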

Additional observations from a re-analysis of the deposited data

Results flagged for a closer look

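Plate means of named members were compared within each class, and 8 of 60 groups had 1 plate far from the others, where chance marks about 1 in 20. Some of these plates held only 1, 3 or 5 cells of the class. Whether 8 is more than chance gives for means over so few cells was not tested. Values are mean log2(FPKM + 1).

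In mesenchyme-like cells Col1a2 was 4.87 on plate 6, which held 1 such cell, and 3.08 to 3.65 elsewhere. Col9a2 was 1.95 on plate 4 (3 cells), against 0.0 to 0.23, and Col9a3 was 2.07 on plate 3 (3 cells), against 0.0 to 0.74. In surface ectoderm-like cells plate 3, with 5 cells, stood apart for both Col9a1 (2.06, others 0.0 to 0.2) and Col9a3 (0.39, others 0.0). In neural tube progenitor-like cells Col9a3 was 0.73 on plate 5 (17 cells), against 0.0 to 0.19. In otic epithelium-like cells Lama1 was 0.81 on plate 4 (24 cells), against 0.09 to 0.31, and Lamb1 was 1.04 on plate 1 (18 cells), against 1.69 to 1.9.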

How the results depend on the processing

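As reported, 15, 14, 13, 7 and 1 members were called for mesenchyme-like, surface ectoderm-like, neural tube progenitor-like and early neuroblast-like cells against otic epithelium-like cells and for neurons against neuroblasts. Without the replicate block these were 15, 14, 13, 6 and 1. In cells without a source well they were 3, 2, 3, 4 and 0. On the log2 of mean FPKM, surface ectoderm-like cells had 3, early neuroblast-like cells 2 and neurons against neuroblasts 4. Weighting by number of cells gave 22 for neural tube progenitor-like cells and 0 for neurons against neuroblasts. For neurons against neuroblasts the count was also 2 with own marker list highest, 3 after the correction for transfer and 0 on log2(FPKM + 0.1). The counts under these other settings are given without the share of all genes called in the same fits, so they describe the members only. No called difference changed sign under any setting run.

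Of the 50 calls, 50 held with upper-quartile scaling, 49 weighted, 49 without endothelial or macrophage cells, 49 of 49 tested with a 5% filter, 48 without the block, 47 corrected, 44 on log2(FPKM + 0.1), 44 with no filter, 37 with own list highest, 25 on mean FPKM and 11 without source wells; the cause of these losses was not tested. Leaving out a replicate leaves no residual degrees of freedom and so no test, and 3 differences moved by over 1.5 times. Of 33 shares in the highest class, 0 moved after correction, 10 without source wells and 18 at 10 FPKM. Low shares moved more: after correction Col9a1 was in 3 of 120 neural tube progenitor-like cells, against 10 as deposited, and in 6 of 59 differentiating neuron-like cells, against 13, and Col9a3 was in 1 neural tube progenitor-like cell, against 8. Read depth is unknown, so a gene listed at 0 is not shown to be absent.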

Other observations

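Matrix genes were also found in cells with markers of vessels or macrophages, some of which lay in receiving wells. Of 3 early neuroblast-like cells of replicate 2 with 6 or 7 of 7 endothelial markers, 1 on plate 5 had 148.8 FPKM of Col18a1, 130.8 of Col4a1, 148.0 of Col4a2 and 47.9 of Lamb1, and 1 on plate 4 had 96.1 of Col18a1 and 70.7 of Col4a1. The latter cell had no source well, while the cell on plate 5 lay in a receiving well. Of 4 cells of replicate 1 with 7 of 7 macrophage markers, 1 neural tube progenitor-like cell on plate 1 had 80.3 FPKM of Itgb2. This leukocyte integrin chain was below the threshold for members. Another such cell on plate 1 had 221.3 FPKM of Itgb5, and neither cell had a source well. The otic epithelium-like cell among the 4 lay in a receiving well, with 1.6 FPKM of Itgb2, 56.3 of Col2a1 and 77.0 of Col9a1.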
